A study of Mus musculus with 6 samples.

Results

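Triacylglycerol synthesis in the liver was followed through 10 genes of the glycerolipid pathway, chosen by gene symbol from 28450 listed genes. They are the glycerol 3-phosphate acyltransferase gene Gpam, the lysophosphatidate acyltransferase genes Agpat2 and Agpat3, the lipin genes Lpin1, Lpin2 and Lpin3, the diacylglycerol acyltransferase genes Dgat1 and Dgat2, and the monoacylglycerol acyltransferase genes Mogat1 and Mogat2. All 10 were listed, and 9 passed the filter of a mean of at least 1 FPKM (fragments per kilobase of exon, scaled to the library's total) over the 6 mice. The groups were 3 male mice labelled Acsm3 knockout and 3 male control mice labelled WT. All were 12 weeks old, ate a normal diet, and gave 1 liver RNA library each. Acsm3 codes for a mitochondrial enzyme that activates medium-chain fatty acids with coenzyme A. The sources used here do not state the allele, the strain, whether the deletion was confined to a cell type, or the feeding state and hour at which livers were taken.

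Hepatocytes build triacylglycerol on glycerol 3-phosphate. An acyl chain is added to give lysophosphatidate, another to give phosphatidate, lipins remove the phosphate to give diacylglycerol, and a last acyl transfer gives triacylglycerol for droplets or for secretion in very-low-density lipoprotein. Monoacylglycerol acyltransferases enter this route from the side, by re-esterifying monoacylglycerol to diacylglycerol, and are best known from the absorbing intestine. Dgat1 and Dgat2 catalyse the same last step but belong to unrelated protein families, and Dgat2 is a relative of the Mogat enzymes.

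The low FPKM values moved in steps that implied 15400000 to 16100000 fragments per knockout library and 15600000 to 16300000 per control library. A level of 1 FPKM then stands for 30.7 to 32.2 fragments in knockouts and 31.3 to 32.5 in controls over 2 kb of exon. Acsm3 was at 0.668, 2.92 and 1.08 FPKM in knockouts 1, 2 and 3, against 33.2, 34.4 and 32.2 FPKM in controls 1, 2 and 3. On the first principal component (56.1% of the variance) knockout 3, at -10.1, lay nearer to the controls (17.3 to 25.9) than knockouts 1 and 2, at -24.6 and -27.7. Of 10996 tested genes, 1532 were higher and 287 lower in knockouts (limma, adjusted p of 0.05), and 830 higher and 735 lower after median-ratio scaling. Over all tested genes the log2 fold change had a median of 0.13, and of -0.00 after that scaling. Hepatocyte markers summed to 34620 to 38817 FPKM in knockouts and to 47192 to 56005 FPKM in controls, with 2 of 8 lower (Alb and Ttr). The other 6 were not called. Alb passed without knockout 3 only (adjusted p up to 0.118 without the others) and did not pass with no filter (0.616). Ttr did not pass with no filter (adjusted p = 0.23) or with quantile normalization (0.0662). Alb made up most of this sum, with a mean of 22584 FPKM in knockouts and 34484 FPKM in controls. Macrophage markers summed to 191 to 363 FPKM in knockouts and to 106 to 170 FPKM in controls, with 5 of 7 higher. Of these 5, Gpnmb passed without each mouse. Cd68 and Lyz2 passed without knockout 3 only (adjusted p up to 0.0935 and 0.126 without the others). With no filter Cd68 and Lyz2 did not pass (adjusted p of 0.073 and 0.0964). Stellate and fibroblast markers summed to 74.6 to 103 FPKM in knockouts and to 36.9 to 43.7 FPKM in controls, with 5 of 6 higher. Of the genes called in these 2 lists, Gpnmb, Trem2 and Col1a1 averaged 0.332, 0.449 and 0.410 FPKM in controls. They reached the filter of 1 FPKM only through the knockouts. In bulk liver RNA, fewer cells of a type and less RNA of a marker gene per cell cannot be told apart.

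Among the 9 tested members Mogat1 alone passed the test, and it was higher in knockout livers. This was 11.1% of the members, where 16.5% of all tested genes were called in either direction, 13.9% higher and 2.61% lower. Knockout and control values did not overlap in 2 members, Mogat1 and Gpam, with knockouts above in both. The same held, in either direction, for 41.8% of all tested genes, with knockouts above in 33.9% and below in 7.91%. The median log2 fold change of the 9 tested members was 0.19, beside 0.13 for all tested genes. After median-ratio scaling it was 0.04, beside -0.00. The separated members made up 22.2% of the 9 tested members. The called and separated shares of members were lower in number than those of all tested genes. With only 9 tested members, these shares are too coarse to rank the members against all tested genes.

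**Figure D1:**
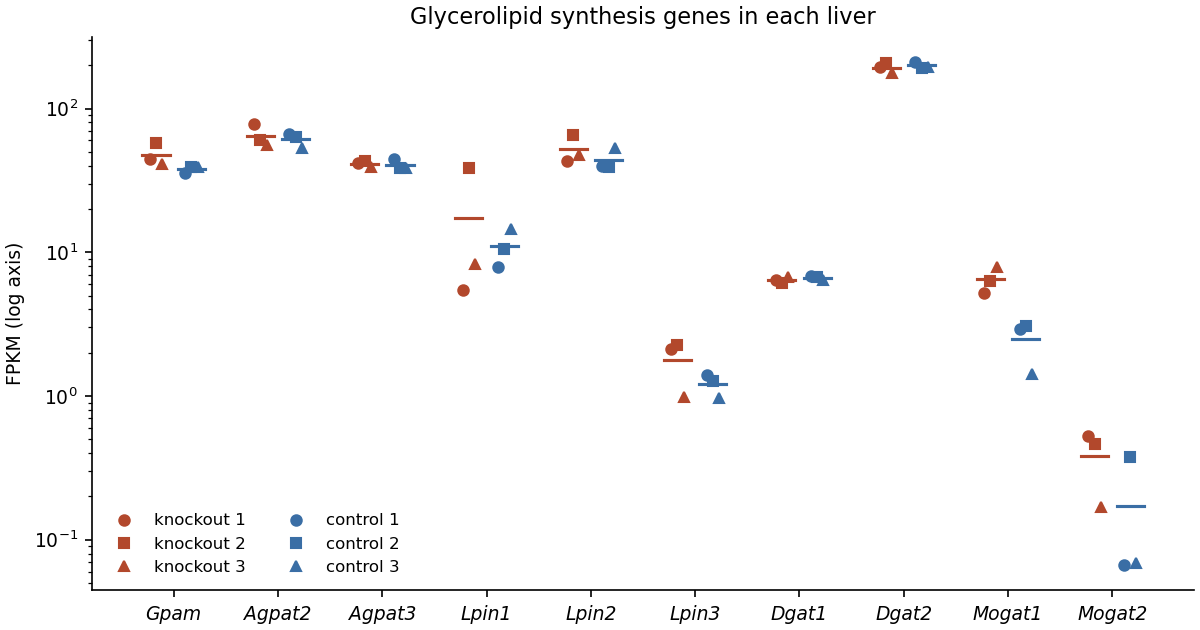
FPKM on a log axis for each of the 10 genes, with 3 knockout livers (red) left of 3 control livers (blue); symbols mark the mouse and bars the group mean. Mogat1 is separated between the groups, Dgat2 lies near 200 FPKM in both, and knockout 2 stands apart in Lpin1 at 38.3 FPKM.

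By level, Dgat2 led the members in both groups, and levels per length differed widely between genes. In knockouts Dgat2 averaged 192 FPKM, Agpat2 64.8, Lpin2 52.0, Gpam 47.7, Agpat3 41.3, Lpin1 17.4, Mogat1 6.47, Dgat1 6.4, Lpin3 1.79 and Mogat2 0.385 FPKM. The same genes averaged 200, 61.3, 44.1, 38.2, 40.7, 11, 2.47, 6.67, 1.21 and 0.172 FPKM in controls. The range of Gpam over mice overlapped those of Lpin2 and of Agpat3 in both groups. Lpin2 and Agpat3 overlapped each other in controls, so the order of these 3 genes is not set beyond the spread. The range of Agpat2 overlapped that of Lpin2 in both groups and that of Gpam in knockouts, so its place above Lpin2 is not set either. Mogat1 lay below Dgat1 in each of the 3 controls, whereas the ranges of these 2 genes overlapped in knockouts.

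Gpam (ENSMUSG00000024978, chromosome 19, 55069734 to 55099451, minus strand, GRCm38 as for all genes) encodes the mitochondrial acyltransferase that starts the pathway. Its FPKM were 44.9, 57.3 and 40.8 in knockouts 1, 2 and 3, against 35.7, 39.3 and 39.5 in controls 1, 2 and 3. Each knockout was above each control, by a narrow margin in knockout 3. The means were 47.7 ± 8.60 FPKM in knockouts and 38.2 ± 2.13 FPKM in controls (SD, n = 3 each). The log2 fold change, knockout minus control on the FPKM + 1 scale, was 0.30 ± 0.13 (SE), with a 95% interval of -0.01 to 0.61 and an adjusted p of 0.149 (limma), so Gpam did not pass. After median-ratio scaling it was 0.14 (adjusted p = 0.516). Gpam made up 43.8%, 49.5% and 39.1% of the summed FPKM of the 4 glycerol 3-phosphate acyltransferase genes in knockouts 1, 2 and 3, against 38.1%, 42.4% and 38.7% in controls 1, 2 and 3. Gpat4, an acyltransferase of the endoplasmic reticulum, supplied most of the rest, at 41.7% to 50.7% of the sum in knockouts and 49.3% to 53.4% in controls.

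Agpat2 (ENSMUSG00000026922, chromosome 2, 26593057 to 26604417, minus strand) and Agpat3 (ENSMUSG00000001211, chromosome 10, 78269178 to 78352489, minus strand) encode enzymes that add the next acyl chain. Agpat2, whose loss causes generalised lipodystrophy in humans and mice, was at 78.5, 60.6 and 55.3 FPKM in knockouts 1, 2 and 3 and at 66.8, 63.6 and 53.4 FPKM in controls 1, 2 and 3. The groups overlapped, with knockout 1 highest and control 3 lowest. Agpat2 differed by a log2 fold change of 0.07 ± 0.15, with a 95% interval of -0.28 to 0.42 (adjusted p = 0.772), and it was -0.09 after median-ratio scaling. Agpat3, which favours polyunsaturated acyl chains, was at 42.1, 43.0 and 38.9 FPKM in knockouts and at 44.6, 38.7 and 38.8 FPKM in controls. These ranges overlapped as well. Agpat3 differed by 0.02 ± 0.08, with a 95% interval of -0.18 to 0.22 (adjusted p = 0.874), and it was -0.14 after median-ratio scaling. The ratio of Agpat2 to Agpat3 lay between 1.41 and 1.86 in knockouts and between 1.38 and 1.64 in controls. Its log2 value differed by 0.05 (knockout minus control, exact permutation test, two-sided p = 0.8). Agpat1, Agpat4 and Agpat5 together made up less than either gene, with Agpat1 at 3.04% to 4.01% of the summed Agpat FPKM in knockouts and 3.64% to 3.99% in controls.

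The lipins convert phosphatidate to diacylglycerol, and Lpin1 had the widest relative spread among the tested members. Lpin1 (ENSMUSG00000020593, chromosome 12, 16535669 to 16610966, minus strand), the gene mutated in the fatty liver dystrophy mouse and known in liver to be induced by fasting and glucocorticoids, was at 5.47, 38.3 and 8.33 FPKM in knockouts 1, 2 and 3. In controls 1, 2 and 3 it was at 7.89, 10.6 and 14.5 FPKM. Knockout 2 was higher than every other liver, while knockout 1 was lower than every other liver. The 3 knockouts spanned 7.0-fold, and their log2(FPKM + 1) values spanned 2.60, more than in 99.7% of tested genes. The log2 fold change of 0.19 ± 0.64 had a 95% interval of -1.33 to 1.70 (adjusted p = 0.862). Without knockout 2 it was -0.59 (adjusted p = 0.22) and without control 1 it was -0.01 (adjusted p = 0.993), so the direction rested on those livers. After median-ratio scaling it was 0.04.

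Lpin2 (ENSMUSG00000024052, chromosome 17, 71182560 to 71249817, plus strand), the most abundant lipin gene in these livers, was at 43.2, 65.5 and 47.2 FPKM in knockouts 1, 2 and 3, against 39.6, 39.2 and 53.5 FPKM in controls 1, 2 and 3. Knockout 2 was again highest, control 3 came next, and the groups overlapped. Lpin2 differed by 0.22 ± 0.19, with a 95% interval of -0.22 to 0.67 (adjusted p = 0.429). Without knockout 2 it was 0.05, and after median-ratio scaling 0.06. Lpin2 made up 85.0%, 61.8% and 83.5% of the summed lipin FPKM in knockouts 1, 2 and 3, and 81.0%, 76.7% and 77.5% in controls 1, 2 and 3. Lpin1 made up 10.8%, 36.1% and 14.7% in knockouts and 16.2%, 20.8% and 21.1% in controls. The ratio of Lpin1 to Lpin2 was thus 0.127, 0.584 and 0.177 in knockouts, against 0.199, 0.272 and 0.272 in controls. Its log2 value differed by -0.06 (exact permutation test, two-sided p = 1), and without knockout 2 by -0.71.

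**Figure D2:**
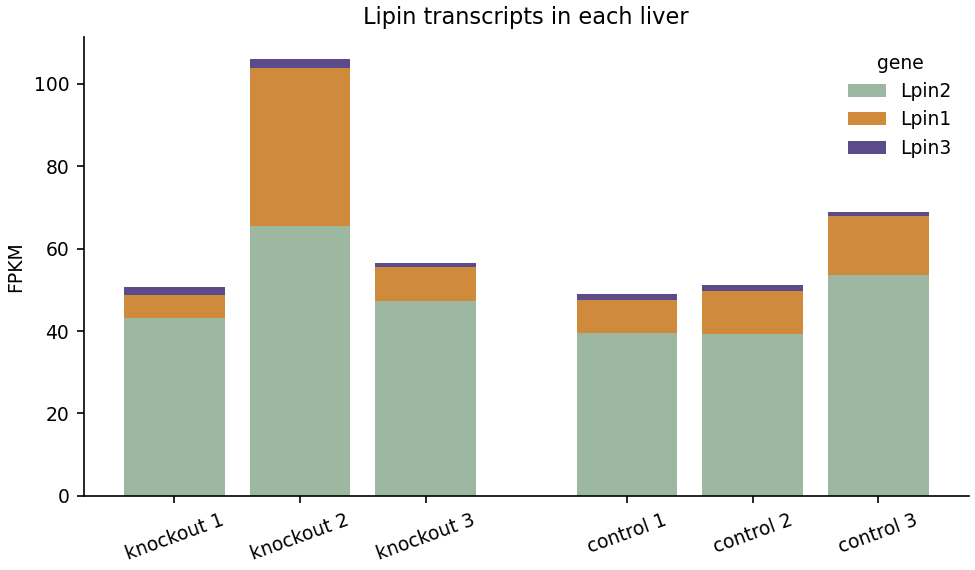
Stacked FPKM of Lpin2, Lpin1 and Lpin3 in each liver, with knockouts left of controls. Lpin2 is the largest part in all 6 livers, and the Lpin1 part is largest in knockout 2, where it is 36.1% of the sum.

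Lpin3 (ENSMUSG00000027412, chromosome 2, 160880670 to 160906002, plus strand), the third lipin gene, known mainly from the gut, was at 2.12, 2.26 and 0.987 FPKM in knockouts 1, 2 and 3 and at 1.39, 1.27 and 0.965 FPKM in controls 1, 2 and 3. Knockouts 1 and 2 were above all controls, and knockout 3 lay among them. Its difference was 0.31 ± 0.20, with a 95% interval of -0.18 to 0.80 (adjusted p = 0.321). Without knockout 3 it was 0.54 ± 0.12 and passed (adjusted p = 0.031), and after median-ratio scaling with all mice it was 0.21. Knockout 3 was also the knockout with the least macrophage marker RNA, with 346, 363 and 191 summed FPKM in knockouts 1, 2 and 3 and 151, 170 and 106 in controls 1, 2 and 3. The part of these cells in the Lpin3 values was not tested.

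Among the knockouts, Ciart and Foxo1 were also highest in knockout 2, and these 2 genes were picked from their lists after their values were seen. The clock output gene Ciart was at 2.19, 9.36 and 2.95 FPKM in knockouts 1, 2 and 3, against 7.79, 9.72 and 11 FPKM in controls. Foxo1, a transcription factor of the fasting response, was at 6.90, 13.6 and 6.74 FPKM in knockouts and at 7.57, 8.48 and 11.6 FPKM in controls. Knockout 2 was thus the highest knockout for Lpin1, Lpin2, Foxo1 and Ciart, and its Ciart value lay within the controls. Other clock and fasting genes went both ways in knockout 2. Pck1 was highest there among the knockouts, at 565, 837 and 555 FPKM in knockouts 1, 2 and 3. The clock genes Nr1d1 (25.5, 10.3 and 22.2 FPKM) and Dbp (10.5, 5.50 and 7.33 FPKM) were lowest there among the knockouts. With all mice Ciart and Nr1d1 did not pass (limma, adjusted p of 0.129 and 0.525). Without knockout 2, Ciart passed as lower and Nr1d1 as higher. Over all tested genes 13.9% were called higher and 2.61% lower. Among 11 tested clock genes, 1 rose (Clock, 0.49 ± 0.08) and 2 fell (Tef, -0.61 ± 0.07, and Per3, -0.77 ± 0.11). Among 9 tested genes of the fasting response, 3 fell: the gluconeogenic G6pc (-0.91 ± 0.16) and Pck1 (-0.79 ± 0.20) and the carnitine acyltransferase Cpt1a (-0.29 ± 0.07). Pdk4, an inhibitor of pyruvate oxidation in the same list, was at 7.0, 16.6 and 28.7 FPKM in knockouts 1, 2 and 3, against 6.99, 4.55 and 4.59 FPKM in controls 1, 2 and 3. Its log2 fold change of 1.36 ± 0.45 did not pass (adjusted p = 0.0796), and it passed as higher without knockout 1. The adjusted p of the 6 called genes ran from 0.00638 to 0.0435. Tef and Per3 passed without each mouse. Clock passed without knockout 3 only (adjusted p up to 0.0643 without the others). Quantile normalization ended the calls of Clock (adjusted p = 0.056), Pck1 (0.087) and Cpt1a (0.0794). G6pc did not pass without knockout 2, control 2 or control 3 (adjusted p up to 0.0662), and Pck1 passed without knockout 2 only (adjusted p up to 0.12 without the others). Cpt1a lost its call without each of the 6 mice in turn (adjusted p up to 0.103). The part of feeding state and hour in the lipin values was not tested.

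The promoter window of Lpin1 is shown because this member varied most between knockouts. It runs from 250 bases before to 50 bases after the RefSeq start (GRCm38.p6, chr12:16610917-16611216, minus strand), printed 5′ to 3′. Capitals mark AGGTCA, a core motif bound by many nuclear receptors, whose first base lies at -74 counted from the start as 0.
Lpin1: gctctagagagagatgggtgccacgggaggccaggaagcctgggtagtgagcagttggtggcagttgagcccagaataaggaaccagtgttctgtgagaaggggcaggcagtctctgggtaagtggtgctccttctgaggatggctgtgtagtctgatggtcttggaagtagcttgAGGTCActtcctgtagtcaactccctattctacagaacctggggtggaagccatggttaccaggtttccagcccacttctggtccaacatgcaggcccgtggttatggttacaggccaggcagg
RefSeq windows were matched for 7 of the 10 members, in 11 windows; Dgat1, Dgat2 and Mogat2 are named only. AGGTCA, read on both strands, stood in 2 of the 11 windows (Lpin1 and 1 of 2 Gpam windows), and in 16.3% of 32851 windows of the same length. The E-box CACGTG, a motif of the clock and of carbohydrate-response factors, stood in 2 of 11 windows (1 of Lpin2 and 1 of Lpin3), against 7.15% of all windows. The sterol regulatory element of the LDL receptor gene, searched with its central base free, stood in 0 of 11, against 0.234% of all windows. No member window held more than 1 of these motifs or any of them together with CCAAT, described with Mogat1. These are matches of letters and not binding sites.

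The products of Dgat1 (ENSMUSG00000022555, chromosome 15, 76502015 to 76511953, minus strand) and Dgat2 (ENSMUSG00000030747, chromosome 7, 99153658 to 99182719, minus strand) add the last acyl chain, and neither gene passed the test. Dgat2, the enzyme that mainly esterifies newly made fatty acids in liver, was at 193, 206 and 177 FPKM in knockouts 1, 2 and 3 and at 211, 192 and 195 FPKM in controls 1, 2 and 3. Its log2 fold change was -0.06 ± 0.08, with a 95% interval of -0.26 to 0.14 (adjusted p = 0.664). Dgat1, of the membrane-bound O-acyltransferase family, was at 6.41, 6.09 and 6.70 FPKM in knockouts and at 6.87, 6.68 and 6.46 FPKM in controls. Its log2 fold change was -0.05 ± 0.07, with a 95% interval of -0.22 to 0.11 (adjusted p = 0.635). The groups overlapped for both genes, and both intervals were narrow. After median-ratio scaling the changes were -0.22 for Dgat2 (adjusted p = 0.118) and -0.19 for Dgat1 (adjusted p = 0.143). Dgat2 was 30.1, 33.8 and 26.5 times the level of Dgat1 in knockouts 1, 2 and 3 and 30.7, 28.8 and 30.3 times in controls 1, 2 and 3. The log2 ratio averaged 4.91 in knockouts and 4.90 in controls (difference 0.00 when rounded, exact permutation test, two-sided p = 1).

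Mogat1 (ENSMUSG00000012187, chromosome 1, 78510991 to 78538173, plus strand), the monoacylglycerol acyltransferase gene known to be induced in fatty livers of mice, was higher in every knockout. It was at 5.23, 6.33 and 7.86 FPKM in knockouts 1, 2 and 3, against 2.91, 3.08 and 1.43 FPKM in controls 1, 2 and 3. The lowest knockout was above the highest control. The means of 6.47 ± 1.32 FPKM in knockouts and 2.47 ± 0.907 FPKM in controls (SD, n = 3 each) differed 2.62-fold. These values correspond to about 127, 152 and 197 fragments in knockouts and 74, 76 and 35 in controls. On the log2 scale the rise was 1.13 ± 0.23, with a 95% interval of 0.59 to 1.66 (limma, adjusted p = 0.0249).

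The call on Mogat1 was close to the threshold. It ended without knockout 2 (adjusted p = 0.0821), control 1 (0.0513), control 2 (0.0564) or control 3 (0.0536), while the log2 fold change stayed between 0.89 and 1.26 with any mouse left out. It also ended with no filter on low genes (adjusted p = 0.0653). With a pseudocount of 5 the log2 fold change was 0.62 and with 0.1 it was 1.41, and both passed. The call held after median-ratio scaling (1.0, adjusted p = 0.0351) and on estimated fragments with voom (1.44, adjusted p = 0.0205). The background moved with these settings. Without knockouts 1, 2 and 3 in turn, 4.95%, 2.85% and 20.7% of all tested genes were called, and without controls 1, 2 and 3 in turn, 5.79%, 2.92% and 2.54%. The share was 2.49% with no filter, 19.9% with a filter at 5 FPKM, 14.3% after median-ratio scaling, 12.3% with quantile normalization, 18.4% with a replicate block and 19.7% with voom.

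Set against Dgat2, its relative, Mogat1 was higher in each knockout library. The ratio of Mogat1 to Dgat2 was 0.0272, 0.0308 and 0.0443 in knockouts 1, 2 and 3, against 0.0138, 0.0160 and 0.00732 in controls 1, 2 and 3. The log2 ratio was higher by 1.51 in knockouts, in all 3 of them (exact permutation test, two-sided p = 0.1, the smallest that 3 against 3 allows, and 0.4 adjusted over the 4 ratios tested). Mogat1 shares 1168 bp of its interval with BC035947 on the minus strand. BC035947 averaged 0.263 FPKM in knockouts and 0.0820 FPKM in controls, and the sources used here do not say whether the libraries kept strand.

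**Figure D3:**
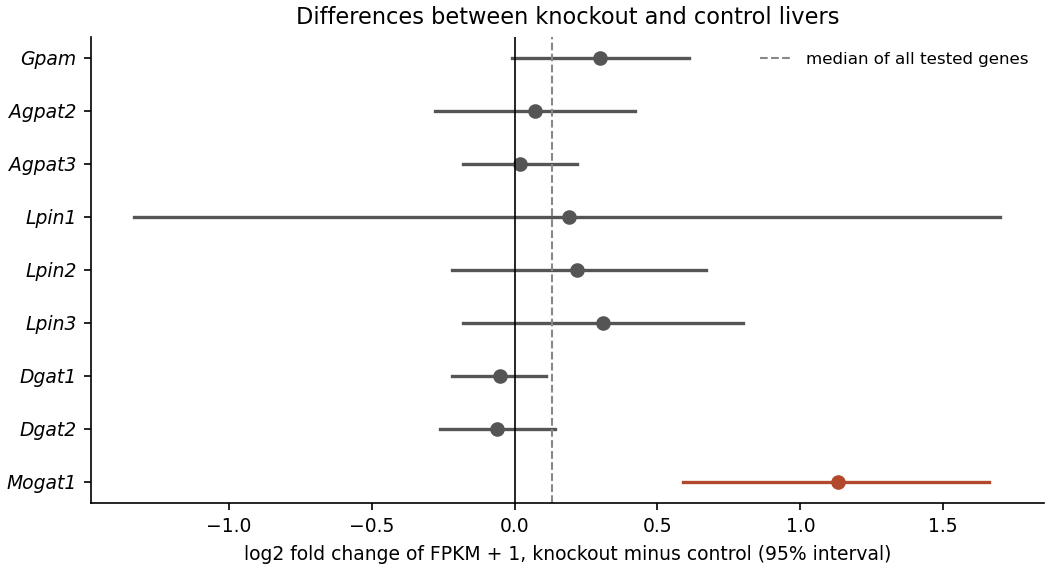
Log2 fold change of FPKM + 1, knockout minus control, for the 9 tested members, with 95% intervals from limma; red marks the member that passed and the dashed line the median of all tested genes. Mogat1 at 1.13 is clear of 0, Dgat1 and Dgat2 have narrow intervals around 0, and Lpin1 has the widest interval, from -1.33 to 1.70.

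The promoter window of Mogat1 is shown because it is the member that passed (RefSeq, GRCm38.p6, chr1:78510810-78511109, plus strand, 5′ to 3′). Capitals mark CCAAT read on the minus strand (ATTGG), with its first base at 24 after the start.
Mogat1: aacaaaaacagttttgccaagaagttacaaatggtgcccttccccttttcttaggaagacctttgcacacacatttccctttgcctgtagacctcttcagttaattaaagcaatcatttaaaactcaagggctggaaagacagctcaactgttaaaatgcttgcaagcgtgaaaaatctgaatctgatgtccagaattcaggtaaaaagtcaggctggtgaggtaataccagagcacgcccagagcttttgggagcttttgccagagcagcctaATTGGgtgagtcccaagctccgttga
CCAAT stood in 3 of the 11 member windows (Mogat1, 1 of Gpam and 1 of Lpin2) and in 37.4% of all windows.

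Mogat2 (ENSMUSG00000052396, chromosome 7, 99219084 to 99238619, minus strand), the gene of the main monoacylglycerol acyltransferase of the mouse intestine, was near the limit of detection. It was listed at 0.525, 0.463 and 0.168 FPKM in knockouts 1, 2 and 3 and at 0.0667, 0.379 and 0.0694 FPKM in controls 1, 2 and 3. That is about 15, 13 and 5 fragments in knockouts, against 2, 11 and 2 in controls. The groups overlapped through control 2, and Mogat2 was below the filter. With no filter its log2 fold change was 0.24 ± 0.15 (adjusted p = 0.409). Of the enterocyte markers, Sis, Lct, Alpi, Rbp2 and Vil1 were each at or near 0 in both groups, and Fabp2, which liver also expresses, was at 121 to 138 FPKM in knockouts and 139 to 144 FPKM in controls. Mogat1 supplied 90.9% to 97.9% of the summed Mogat FPKM in knockouts and 89.1% to 97.8% in controls. Mogat2 lies beside Dgat2 on the same strand, with 36.4 kb and no listed gene between them, and the levels of these neighbours differed widely.

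Of 4 tested adipocyte markers 3 rose: Cidea, a droplet protein, by 2.65 ± 0.49 on the log2 scale, Cfd, the serum protease adipsin, by 2.58 ± 0.36, and Fabp4, a fatty acid binding protein, by 1.05 ± 0.16. Their adjusted p ran from 0.0122 to 0.0213. Cidea did not pass without knockout 1 (adjusted p = 0.0513), knockout 2 (0.067) or control 1 (0.0562) or with no filter (0.0583), and Fabp4 did not pass without control 2 (0.0537) or control 3 (0.0523). Cfd passed without each mouse. Its mean was 0.160 FPKM in controls and 6.57 FPKM in knockouts, so Cfd reached the filter of 1 FPKM only through the knockouts. Adrb3, the fat-cell adrenergic receptor gene, was at 0.09 (adjusted p = 0.766), and the other 4 of the 8 listed markers were below the filter. Cidea was at 19.2, 22.2 and 35.9 FPKM in knockouts 1, 2 and 3, against 3.26, 7.11 and 1.04 FPKM in controls 1, 2 and 3. Knockout 3 had the highest value and control 3 the lowest for both Cidea and Mogat1, whereas for Fabp4 knockout 3 was the lowest knockout at 3.62 FPKM and control 3 the highest control at 1.67 FPKM. The 8 adipocyte markers summed to 28.0, 35.9 and 51.2 FPKM in knockouts and to 6.27, 9.74 and 4.72 FPKM in controls. Of the defining markers, Adipoq was at 0.00 to 0.0895 FPKM in knockouts and at 0.00 in controls, and Plin1, Retn and Lep were at 0.0422 FPKM or below in every liver.

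The 5 tested genes with the profile nearest to Mogat1 over the 6 mice were Map3k13, Manf, BC049987, Rarres1 and Fyb2. The measure was the Euclidean distance of log2(FPKM + 1) values centred on the mean of the 3 controls, and it ran from 0.35 to 0.52. Map3k13, a MAP kinase kinase kinase, was at 3.65, 3.99 and 5.87 FPKM in knockouts 1, 2 and 3 and at 1.72, 1.73 and 1.18 FPKM in controls 1, 2 and 3. Manf, a secreted protein of the endoplasmic reticulum, averaged 11 FPKM in knockouts and 5.20 FPKM in controls. These genes were chosen for this pattern, so their differences are a description. For Lpin1, chosen for this after its values were seen, the nearest gene lay at a distance of 0.93. Of its 5 nearest, 3 were immunoglobulin genes and the others were Tcim and Arrdc2. The immunoglobulin genes were high in knockout 2 alone, at 4.35 to 5.77 FPKM, beside 0.00 to 0.373 FPKM in the other knockouts and 0.00 to 1.43 FPKM in controls. Tcim was at 7.68, 20.5 and 5.45 FPKM in knockouts 1, 2 and 3 and at 6.30, 9.80 and 10.3 FPKM in controls.

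**Figure D4:**
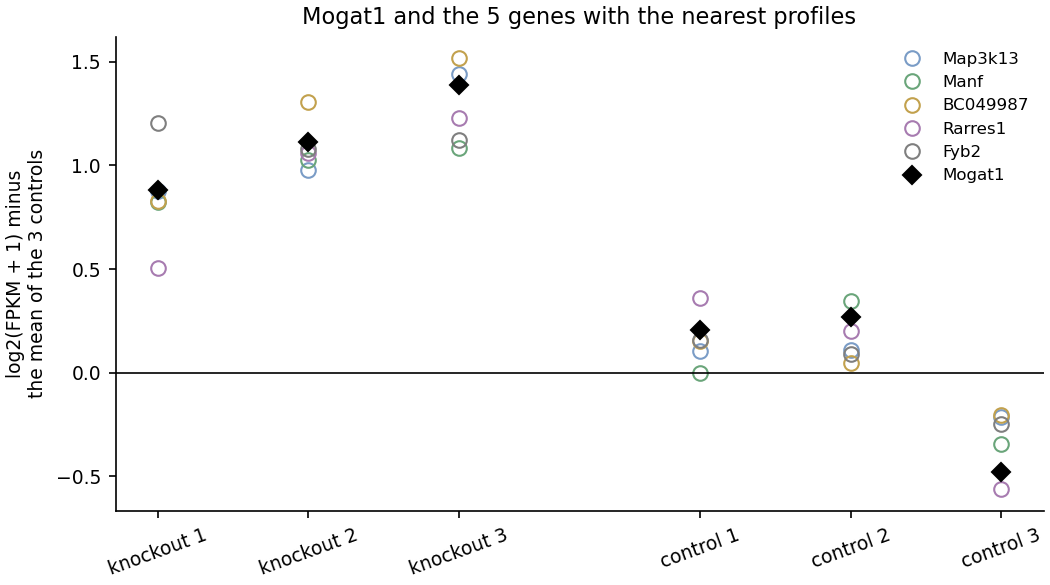
Log2(FPKM + 1) minus the mean of the 3 controls in each liver, for Mogat1 (black diamonds) and the 5 genes nearest to it (open circles), knockouts left of controls. All 6 genes lie above 0 in every knockout, and control 3 is the lowest liver for each.

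Beyond the members, 30 of 31 listed glycerolipid genes were found and 23 tested. None of these 23 rose and 2 fell, both of the supply of glycerol 3-phosphate, beside 13.9% of all tested genes higher and 2.61% lower. Before adjustment 9 had a p under 0.05 (limma). At least 16.5% of all tested genes lay under that level too, since that share passed after adjustment. The full share was not counted, so the 9 are not ranked against it. The median log2 fold change of the 23 was 0.15. With voom, 2 rose (Agpat5 and Selenoi) and the same 2 fell, and with a replicate block 4 rose and 0 fell. Glycerol kinase, Gk, was at 38.4, 39.3 and 37.3 FPKM in knockouts 1, 2 and 3, against 47.1, 45.8 and 53.5 FPKM in controls 1, 2 and 3. Its log2 fold change was -0.34 ± 0.08 (adjusted p = 0.0371). Gpd1l, a relative of the cytosolic glycerol 3-phosphate dehydrogenase gene Gpd1, was at 9.80, 10.4 and 10.1 FPKM in knockouts and 12.1, 11.8 and 13.6 FPKM in controls (-0.28 ± 0.08, adjusted p = 0.0490). The groups did not overlap for either gene. Both calls ended without each of the 6 mice in turn, with an adjusted p of 0.067 to 0.1 for Gk and 0.0755 to 0.129 for Gpd1l, and both held after median-ratio scaling (-0.50 and -0.44). Gpd1 itself was at 0.12 ± 0.11 (adjusted p = 0.485).

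No gene of the other steps passed in limma on log2(FPKM + 1) with all 6 mice, no scaling and no replicate block. Without knockout 3, Dgkz and Plpp2 passed as higher, and after median-ratio scaling or quantile normalization the diacylglycerol kinase gene Dgka passed as lower. Among 6 tested genes for other glycerol 3-phosphate and lysophosphatidate acyltransferases, the nearest were Gpat3 (0.45 ± 0.15, adjusted p = 0.0798) and Agpat5 (0.28 ± 0.10, adjusted p = 0.0887). Gpat3 was at 13.3, 8.83 and 9.59 FPKM in knockouts, against 8.05, 6.96 and 7.07 FPKM in controls. Of 5 tested genes for other phosphatidate phosphatases and for the phosphatase that activates lipins, the nearest were Ctdnep1, its catalytic subunit (0.25 ± 0.10, adjusted p = 0.128), and Plpp2 (0.39 ± 0.17, adjusted p = 0.147). Of 8 tested genes that draw phosphatidate or diacylglycerol into phospholipid or signalling, the nearest were the ethanolamine phosphotransferase gene Selenoi (0.34 ± 0.11, adjusted p = 0.0717) and the choline phosphotransferase gene Chpt1 (0.24 ± 0.09, adjusted p = 0.101). Tmem68, an acyltransferase gene of an alternative route to triacylglycerol, was at 0.18 ± 0.08 (adjusted p = 0.158).

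Among 18 tested transcriptional regulators of the pathway, 2 rose and 1 fell. Either way, 16.5% of all tested genes were called, 13.9% as higher and 2.61% as lower. Insig2, which encodes a protein that holds SREBP precursors in the endoplasmic reticulum, was at 124, 117 and 143 FPKM in knockouts 1, 2 and 3, against 54.4, 32.1 and 38.5 FPKM in controls 1, 2 and 3. The groups were far apart, and the rise of 1.63 ± 0.19 on the log2 scale (adjusted p = 0.00777) held without each mouse. Hnf4a, a nuclear receptor of hepatocytes, rose by 0.70 ± 0.12 (adjusted p = 0.0194), which did not pass after median-ratio scaling (adjusted p = 0.0524) or without knockout 1, control 2 or control 3 (adjusted p up to 0.0608). Esrra, an orphan receptor of oxidative metabolism, was at -0.54 ± 0.09 (adjusted p = 0.0194), a fall that did not pass without knockout 2 or without any control (adjusted p up to 0.0596). Pparg, the receptor for which Mogat1 is a known target in mouse liver, was at 8.46, 6.40 and 5.34 FPKM in knockouts 1, 2 and 3, against 4.0, 4.92 and 4.83 FPKM in controls 1, 2 and 3. The groups did not overlap, and Pparg was highest in knockout 1, where Mogat1 was the lowest of the knockouts. Its log2 fold change of 0.45 ± 0.16 did not pass (adjusted p = 0.0883), and it passed without knockout 3 (0.59, adjusted p = 0.037). The part of Pparg in the Mogat1 values was not tested. Srebf1, a regulator of Gpam, was at 24.7, 20.9 and 13.0 FPKM in knockouts and at 22.3, 21.7 and 14.8 FPKM in controls, with an adjusted p of 0.951.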

How the data were processed

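The authors deposited 1 table of FPKM for 28450 genes in 6 liver libraries, with identifiers, symbols and positions. The submitters' processing notes name the build GRCm38 and, with no roles, StringTie 1.3.0, HISAT2 2.0.4 and Bowtie2 2.2.6. The sources used here do not give the strand setting or the treatment of multiply mapped fragments. Columns were matched to sample titles, and p-values measure the spread between 3 mice per group.

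The 10996 genes that averaged 1 FPKM or more were tested on log2(FPKM + 1) with limma 3.58.1 in R 4.3.3 (eBayes with trend), with differences as knockout minus control and Benjamini-Hochberg adjustment over all of them at 0.05. The scale understates changes of low genes. Fragments were estimated from FPKM, union exon lengths (GENCODE M21) and library totals chosen so that low values came out whole (99.6% to 99.7% of those under 20 fragments, to within 0.1). Over all genes these estimates summed to 102.9% to 103.4% of the totals. The deposited interval of Gpam is shorter than that of M21, so its exon length is uncertain.

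Log2 ratios between members were compared by exact permutation (scipy 1.17.1), where 3 against 3 cannot go below 0.1. The alternatives tried were a pseudocount of 0.1 or 5, a filter at 5 FPKM or none, median-ratio scaling, quantile normalization, a replicate block, voom and leaving out each mouse. The procedure was also run on simulated data with noise independent between genes. That run does not give the rate of false calls in these livers. Members and lists were chosen with earlier results of these data known. Named genes were the members, up to 4 called genes of largest fold in each list or the 2 of smallest p where none was called, and the nearest profiles. Pparg, Srebf1, Ciart, Foxo1, Pdk4, Adrb3, Gpd1, Gpat4, Agpat1 and the genes nearest to Lpin1 were named outside this rule, after their values were seen. So were Nr1d1, Dbp, Dgka, Dgkz, Krt19, Krt7, Epcam and Sox9. Of the listed genes, Dgat2l6 and Ckm are not used here. An item of the fasting list is not reported here, and the list's counts leave it out. Lpin2 lies within the interval of Gm26561 on the same strand, listed at 0.00 FPKM in knockouts and 0.0289 in controls. Of the other marker lists, endothelial had 2 of 5 higher (52.7 to 65.4 FPKM in knockouts, 40.9 to 45.7 in controls) and biliary 1 of 1 tested (34.1 to 66.6 and 13.4 to 16.1). Spp1 was the biliary marker tested and made up most of that sum, with means of 45.7 FPKM in knockouts and 13.7 in controls. Below the filter, in the same order, Krt19 averaged 0.366 and 0.352 FPKM, Krt7 0.0419 and 0.0626, Epcam 0.796 and 0.573, and Sox9 1.21 and 0.264. Skeletal muscle and lymphocyte markers had 0 tested and summed to at most 0.585 and 3.16 FPKM in knockouts and 0.550 and 1.42 FPKM in controls.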

Additional observations from a re-analysis of the deposited data

How the results depend on the processing

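With all alternatives counted, Mogat1 passed in 8 of 13 that tested it, with the same sign in each, a log2 fold change of 0.62 (pseudocount 5) to 1.44 (voom) and an adjusted p of 0.0205 to 0.0821; at 5 FPKM it was not tested. The other 8 tested members passed in 1 of 111 fits, Lpin3 without knockout 3. The count of called members was 0 with no filter and 0 at 5 FPKM, where Mogat1 was not tested, and 0 to 2 without single mice. The log2 fold change of Agpat2 was -0.09 after median-ratio scaling and -0.07 to 0.17 without single mice. That of Agpat3 was -0.14 after median-ratio scaling, -0.03 with quantile normalization and -0.01 to 0.09 without single mice, and that of Lpin1 -0.59 to 0.71. Over all genes, 650 were called with no filter, 1108 at 5 FPKM (fewer genes tested) and 279 to 2271 without single mice, and quantile normalization gave 752 higher and 603 lower. Of the other glycerolipid genes 0 were called with no filter, 4 with voom (Gk, Gpd1l, Agpat5 and Selenoi) and 0 to 2 without single mice, the 2 being Dgkz and Plpp2, both higher, in place of Gk and Gpd1l. Median-ratio scaling and quantile normalization each added Dgka as lower. Of the regulators 1 to 4 were called without single mice. Of the clock and fasting genes 3 were called with no filter, 4 with quantile normalization and 2 to 5 without single mice. The cause was not tested, and fits without a mouse rest on fewer samples. The 4 ratios moved by less than the spread between mice in each alternative. Leaving out a mouse or adding a balanced block cannot move them further than that, so those alternatives do not test the ratios. Without single mice the log2 difference ran from -0.71 to 0.39 for Lpin1 to Lpin2 and from -0.08 to 0.12 for Agpat2 to Agpat3. It ran from -0.08 to 0.09 for Dgat2 to Dgat1 and from 1.17 to 1.73 for Mogat1 to Dgat2.

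Same-numbered mice narrowly missed the check for pairing, since deviations from the group means correlated at 0.0918 to 0.187 and not every pair was over 0.1. Each of the 6 mice correlated best with its own number, and unlike-numbered mice correlated at -0.178 to 0.0733. The second principal component (15.8% of the variance) fell with the number in both groups. It was 15.5, -4.73 and -18.1 in knockouts 1, 2 and 3 and 10.8, 4.52 and -8.02 in controls 1, 2 and 3. The check thus does not settle whether the mice are paired. With a replicate block 2018 genes were called, 1564 of them also without it. Mogat1 passed (adjusted p = 0.038). Of the other glycerolipid genes 4 were called higher (Dgkz, Gpat3, Plpp2 and Selenoi), and Gk and Gpd1l did not pass, nor did Pck1 (adjusted p = 0.0619) and Cpt1a (0.0555). Mogat2 rests on no more than 15 fragments in any liver.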
